A study of Rattus norvegicus with 6 samples.

Results

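The shortest reads of rat liver small RNA libraries, those of 18 to 19 nt, are described here by their distinct sequences, called tags. A tag was kept if it had 18 or 19 nt, did not end in CCA and carried at least 30 reads summed over 6 libraries. This gave 3822 tags of the 1528721 in the series, 1545 of them of 18 nt and 2277 of 19 nt. A kept tag was placed in the contained class if its whole sequence occurred inside a tag of 21 to 23 nt with at least 1000 summed reads. This was the case for 898 tags, and the remaining class held the other 2924. The libraries came from liver tissue of Wistar rats, 3 with nonalcoholic fatty liver disease (NAFLD 1 to 3) and 3 normal rats on a standard diet (normal 1 to 3), all aged 4 months by the sample labels and older by the study's methods. The NAFLD rats were fasted and then fed a starch-rich diet. Selection differed, since fat content of the liver decided which NAFLD rats were sequenced and chance which normal rats. Each library is 1 liver, so the replicates are rats, and in whole liver fewer cells of a type and less RNA per cell cannot be told apart.

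MicroRNAs are cut from hairpin precursors by Drosha and Dicer and act in Argonaute proteins, mostly at a length just above that of the tags described here. miR-122 is the dominant miRNA of hepatocytes, and the let-7 family is found in most tissues. Reads shorter than a miRNA can be miRNAs that lack bases at an end, or pieces of abundant structural RNAs such as ribosomal RNA (rRNA) and transfer RNA (tRNA), whose mature 3′ end carries the added CCA that the choice of tags left out.

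The contained class was not mainly made of shortened miRNAs. Of its 898 tags, 54 shared their whole sequence with a mature miRNA or hairpin of the RefSeq table for rat (build GRCr8, 724 mature sequences and 419 hairpins), and 844 did not. Those 54 tags held from 5.14% to 10.3% of the class's reads in the NAFLD libraries and from 6.61% to 16.1% in the normal libraries. By contrast, the 21 to 23 nt tags of at least 1000 reads were nearly all miRNA by reads, 402 of 1053 tags sharing 18 nt with a RefSeq miRNA and holding 96.2% of their reads. That criterion was looser than the one for the short tags, which had to match over their whole length. Of the 8 contained tags with the highest mean TPM, the first 3 were ends of rRNA, and miR-122-5p and let-7f-5p were the only tags among the 8 with a miRNA match. The rRNA and tRNA names given here rest on general knowledge of these conserved sequences, since the sequences used here held no rRNA or tRNA to match. Genome positions are not given, because no genome of the libraries' build was used here.

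The contained tags on which the values turn are printed below from 5′ to 3′ with the tag in capitals inside a 21 to 23 nt tag that contains it, so that lower case marks the bases the short tag lacks.
28S rRNA start: CGCGACCTCAGATCAGACGtg
5.8S rRNA end of 19 nt: taCGCCTGTCTGAGCGTCGCT
5.8S rRNA end of 18 nt: tacGCCTGTCTGAGCGTCGCT
18S rRNA end: gtgaaCCTGCGGAAGGATCATTA
Lysine tRNA start: GCCCGGATAGCTCAGTCGGta
Lysine tRNA end: cAGGTCCCTGTTCGGGCGCCa
miR-122-5p: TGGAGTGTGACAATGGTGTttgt
let-7f-5p: TGAGGTAGTAGATTGTATagtt
miR-122-3p: AACGCCATCATCACACTAAaca
The next tags are from the remaining class, shown in the same way inside a longer tag of under 1000 reads. They include its most abundant tag, a glycine tRNA start whose level differed widely between libraries, and a one-base form of the 5.8S rRNA end.
Leucine tRNA start: GTCAGGATGGCCGAGCGGTct
Glycine tRNA start: GCGTTGGTGGTATAGTGGTg
5.8S rRNA end with G1T: acTCCTGTCTGAGCGTCGCT
The substitution G1T, like all those below, counts from 1 at the 5′ end of the short tag.

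Levels are given as TPM, the reads of a tag per 1000000 clean reads of its library. The libraries held 11601058 to 11880695 clean reads, so 1 read was worth 0.0842 to 0.0862 TPM and tags at a few reads carry a large counting error. The libraries did not fall apart by group alone. A base substitution at read position 4 was rare in NAFLD 1, normal 1 and normal 3 (0.0431% to 0.046%, median of 50 abundant tags) and frequent in NAFLD 2, NAFLD 3 and normal 2 (0.808% to 0.892%). NAFLD 1 also stood apart by the reads that the authors removed as shorter than 18 nt, 1.85% of its high-quality reads against 0.0706% to 0.483% in the other libraries. miR-122-5p, which marks hepatocytes, was at 131874 TPM or more in every library. Of 19 mature miRNAs that mark other cell types, 14 were in the RefSeq table. Counted by the exact mature sequence alone, which leaves out forms with other ends, they were at most at 159 TPM, the highest being miR-199a-3p of stellate cells, and miR-133a-3p of muscle and miR-141-3p of biliary epithelium were at 0 reads in all libraries, a count that allows up to 0.259 TPM. miR-145-5p of smooth muscle was at 47.1 TPM in normal 1 and at 3.06 to 9.14 in the others.

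The contained class summed to 20465, 11204 and 8525 TPM in NAFLD 1 to 3 and to 12831, 2842 and 4426 TPM in normal 1 to 3. NAFLD 1 was the highest library, but normal 1 lay above NAFLD 2 and NAFLD 3, so the groups overlapped. The means were 13398 ± 6265 TPM (SD, n = 3) in NAFLD and 6700 ± 5369 TPM (SD, n = 3) in normal, a ratio of 2.00. The difference did not pass the test (two-sided exact permutation test, p = 0.3, where 3 libraries against 3 allow no p below 0.1). Without NAFLD 1 the log2 ratio fell from 1.00 to 0.56, and without normal 1 it was 1.88. Within the low-substitution libraries it was 1.25 and within the high-substitution libraries 1.80.

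The remaining class summed to 10519, 6420 and 4809 TPM in the NAFLD libraries and to 5716, 1450 and 2433 TPM in the normal libraries. Again normal 1 was the one normal library that reached into the NAFLD range. The means were 7250 ± 2944 and 3200 ± 2234 TPM (SD, n = 3 each), a ratio of 2.27 (exact permutation p = 0.2). The log2 ratio was 1.37 within the low-substitution and 1.95 within the high-substitution libraries, and 0.81 without NAFLD 1. The share of all member reads that lay in the remaining class, a value not moved by depth, was 33.95%, 36.4% and 36.1% in NAFLD and 30.8%, 33.8% and 35.5% in normal. It differed by 2.12 percentage points with overlapping groups, which did not pass (exact permutation p = 0.2). The difference was 0.855 points without normal 1, 3.18 points without normal 3 and 0.803 points within the low-substitution libraries. Both classes thus followed nearly the same order of libraries, from NAFLD 1 down to normal 2, which was also nearly the order of the reads removed as too short. The part of those removed reads in the class levels was not tested.

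In both classes the NAFLD to normal ratio was larger for tags of 18 nt than for tags of 19 nt, a difference that was not itself tested. In the contained class the ratio was 2.43 for 18 nt and 1.86 for 19 nt. In the remaining class it was 2.72 and 2.05. The share of 18 nt among the contained reads was 33.1%, 25.9% and 24.9% in NAFLD and 26.8%, 18.8% and 19.8% in normal. Normal 1 again lay among the NAFLD libraries, and the difference of 6.16 percentage points did not pass (exact permutation p = 0.3). Among the remaining reads the share of 18 nt was 42.3%, 33.8% and 35.5% in NAFLD and 36.2%, 25.4% and 25.8% in normal (exact permutation p = 0.3).

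Base composition separated the groups where summed level did not. Weighted by reads, the G+C content of the contained class was 63.9%, 63.3% and 61.6% in NAFLD and 60.9%, 61.0% and 59.3% in normal. All NAFLD libraries lay above all normal libraries, by 2.55 percentage points on average (62.9% ± 1.18 against 60.4% ± 0.958, SD, n = 3 each, exact permutation p = 0.1, the smallest p this design gives). In the remaining class G+C was 60.9%, 61.1% and 59.5% in NAFLD and 57.5%, 58.9% and 56.4% in normal, again without overlap and 2.90 points higher in NAFLD (exact permutation p = 0.1). The difference was 3.78 points within the low-substitution and 1.51 points within the high-substitution libraries for the contained class, and 3.94 and 1.40 points for the remaining class. In all, 66 values per library were compared between the groups in this way. The smallest exact permutation p of 0.1 was reached by 23 of them and became 0.287 after Benjamini-Hochberg adjustment over the 66, so none passed.

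Counted per tag instead of per read, the median G+C was 61.1% in the contained class (quartiles 50% and 73.7%) and 57.9% in the remaining class (quartiles 50% and 68.4%). The contained tags that matched a miRNA had a median of 42.1%. Their read-weighted G+C was 41.4%, 41.5% and 41.1% in NAFLD and 41.9%, 42.1% and 41.9% in normal. Here the order was turned, with all NAFLD libraries lower, by a difference of only -0.65 points (exact permutation p = 0.1). The 844 contained tags without a miRNA match had 65.11%, 64.97% and 63.98% in NAFLD and 62.28%, 63.97% and 62.63% in normal, 1.73 points higher in NAFLD and without overlap (exact permutation p = 0.1). A higher mean G+C of the contained class in NAFLD was thus present without its miRNA tags, but NAFLD 3 and normal 2 were almost level. The difference was 2.66 points within the low-substitution and 0.504 points within the high-substitution libraries.

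The same gradient appeared tag by tag. Fold changes came from edgeR's quasi-likelihood fit over all 19492 tags with enough reads, which covered 693 contained and 1396 remaining tags. In the contained class the median log2 fold change (NAFLD over normal) was 0.62 for 150 tags under 50% G+C, 0.79 for 267 tags from 50% to under 65%, and 1.31 for 276 tags of 65% or more. In the remaining class it was 0.81, 1.09 and 1.37 for 370, 593 and 433 tags. The median over all tested tags was 0.90. These are descriptions, since tags from 1 RNA share their source and are not independent, and a tag high in NAFLD passes the read minimum more readily than one that is low there.

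No single tag of either class passed the test. With edgeR and Benjamini-Hochberg adjustment over all 19492 tags, 0 tags (0%) had an adjusted p under 0.05, and the smallest adjusted p was 0.499. DESeq2 and limma on log2(TPM + 1) also called 0 tags of either class. At an unadjusted p under 0.05, 26 contained and 73 remaining tags were higher in NAFLD, beside 9.48% of all tested tags, and 0 and 0 were lower, beside 0.0308%. The count of 26 was 340 of 753 tested without normal 1 and 79 of 808 without NAFLD 3. It was 9 of 817 without normal 3 and 4 of 708 without NAFLD 1, where 1 further tag was lower. The count of 73 was 575 of 2025 without normal 1, 181 of 2281 without normal 2 and 144 of 1978 without NAFLD 3. It was 114 of 1774 without NAFLD 1, 48 of 2263 without normal 3 and 37 of 1793 without NAFLD 2. Over all tested tags, 2572 of 24748 were higher without normal 1, 5289 of 25361 without normal 2 and 2157 of 22733 without NAFLD 3. The same count was 1144 of 22967 without NAFLD 1, 867 of 25562 without normal 3 and 936 of 21802 without NAFLD 2. All NAFLD libraries lay above all normal libraries for 40 of the 693 tested contained tags and 197 of the 1396 tested remaining tags, beside 18.9% of all tested tags. The reverse order held for 0 and 0, beside 0.585%. Over all members, tested or not, 66 of 898 contained and 432 of 2924 remaining tags lay wholly higher in NAFLD. No share over all tags of the series was computed on that basis, so these counts have no comparison.

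The substitution rate split the libraries across the groups, and a fit with that split as a covariate changed the calls. It called 189 tags of the 19492, 0.959% of all tested tags being called higher in NAFLD, and among them were 1 contained and 7 remaining tags, all higher. The contained tag was the lysine tRNA end, and a remaining tag called was the glycine tRNA start. The median log2 fold change with the covariate was 1.47 in the contained and 1.56 in the remaining class, against 0.84 over all tested tags. In the fit without it the medians were 0.94 and 1.09, against 0.90. The centring mattered too. With TMM factors, which assume that most tags do not change, the median of all tags moved to 0.23 and those of the contained and remaining classes to 0.37 and 0.52. At an unadjusted p under 0.05, TMM gave 510 tags higher and 250 lower over all tags, and 18 contained and 39 remaining tags higher with 0 and 0 lower.

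The 28S rRNA start, the most abundant tag of both classes, begins at the mature 5′ end of the large subunit rRNA and lacks 2 bases at the 3′ end of the tag that contains it. It stood at 4137, 2309 and 2001 TPM in NAFLD and at 3137, 675 and 1140 TPM in normal. Normal 1 was second highest, so the groups overlapped, and the log2 fold change was 0.77 (SE 0.61, edgeR adjusted p = 0.782), or 1.63 without normal 1. It made up 20.2%, 20.6% and 23.5% of the contained reads in NAFLD and 24.5%, 23.8% and 25.8% in normal. As a share it was thus lower in all NAFLD libraries, although its level was not (exact permutation p = 0.1). Without it the log2 ratio of the contained class was 1.07, against 1.00 with it. The 21 nt tag that contains it held 6 members, which together amounted to 1058, 738 and 898 reads per 1000 reads of that tag in NAFLD and 1002, 627 and 649 in normal.

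The 5.8S rRNA ends keep the 3′ end of the 21 nt tag that contains them and lack bases at its 5′ end. Another 21 nt tag of this region, with 1854 reads, carried a further T, so they may stop short of the mature end. The 19 nt form was at 1608, 780 and 511 TPM in NAFLD and at 1009, 64.9 and 65.2 TPM in normal. The 18 nt form was at 975, 383 and 270 TPM in NAFLD and at 403, 33.1 and 22.5 TPM in normal. In both forms normal 2 and normal 3 were far below the other 4 libraries, and normal 1 lay within the NAFLD range. The log2 fold changes were 1.35 (SE 1.18) and 1.83 (SE 1.21), with edgeR adjusted p of 0.806 and 0.717. Without NAFLD 1 they were 0.77 and 1.09, and without normal 1 they were 3.89 and 4.29. The members inside the 21 nt tag of this end outnumbered it, with 5373, 3360 and 2780 reads per 1000 of its reads in NAFLD and 4114, 614 and 504 in normal. Together with the 6 members inside the 21 nt tag of the 28S rRNA start they accounted for 33.1% of all contained reads.

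The 18S rRNA end is the mature 3′ end of the small subunit rRNA. It was at 549, 98.1 and 29.2 TPM in NAFLD and at 112, 8.26 and 12.9 TPM in normal, with NAFLD 1 apart from the rest (log2 fold change 2.34, SE 1.44, edgeR adjusted p = 0.683). The log2 fold change was 0.52 without NAFLD 1 and 4.41 without normal 1. The lysine tRNA start, the 5′ end of a lysine tRNA, was at 361, 143 and 128 TPM in NAFLD and at 247, 43.5 and 121 TPM in normal. Its log2 fold change of 0.62 (SE 0.73, edgeR adjusted p = 0.825) became -0.01 with TMM factors and -0.02 without NAFLD 1.

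The lysine tRNA end stops directly before the last A of the CCA end, so the rule on CCA did not remove it. It was at 30.7, 4.08 and 3.13 TPM in NAFLD and at 0.759, 0.337 and 0.673 TPM in normal. All NAFLD libraries were higher, and NAFLD 1 was far above NAFLD 2 and NAFLD 3. The log2 fold change was 4.40 (SE 1.13, edgeR adjusted p = 0.499), and 4.67 (SE 0.57, edgeR adjusted p = 0.0469) with the substitution covariate. Without NAFLD 1, in the fit with no covariate, it was 2.59. The 21 nt tag that contains it was at 33.6, 30.7 and 16.8 TPM in NAFLD and at 8.35, 5.81 and 4.21 TPM in normal. Altogether 69 contained tags stopped within or just before the CCA of a containing tag. They summed to 419, 175 and 137 TPM in NAFLD and 301, 50.5 and 120 TPM in normal, with overlapping groups (exact permutation p = 0.5).

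Shortened miRNAs were a small part of the contained class, and their sum overlapped between the groups while their ratio to the longer miRNA tags did not. The 54 contained tags that matched a miRNA summed to 1053, 787 and 880 TPM in NAFLD and to 848, 392 and 714 TPM in normal (906 ± 135 and 651 ± 235, SD, n = 3 each, ratio 1.39, exact permutation p = 0.2). Set against the longer miRNA tags that contain them, they amounted to 1.49, 1.107 and 1.21 reads per 1000 in NAFLD and to 1.05, 0.485 and 0.838 in normal. All NAFLD libraries were higher, with a ratio of means of 1.61 (exact permutation p = 0.1). Part of this ratio lies in its denominator. The containing miRNA tags summed to 706885, 720766 and 735577 TPM in NAFLD and to 810915, 818634 and 852496 TPM in normal, lower in all NAFLD libraries. For the contained tags without a miRNA match the same ratio was 578, 345 and 310 reads per 1000 in NAFLD and 492, 136 and 240 in normal, with overlap (exact permutation p = 0.4).

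The 2 kinds of contained tag also differed in which end was missing. Of the 54 miRNA tags, 44 kept the 5′ end of the containing tag, where the seed of a miRNA lies, and these held 94.9% of the reads. Loss of 3 bases at the 3′ end accounted for 35.5% of the miRNA reads and loss of 4 bases for 54.4%. Only 5 miRNA tags kept the 3′ end and 5 lacked bases at both ends. Of the 844 tags without a miRNA match, 233 kept the 5′ end, 224 the 3′ end and 387 neither, with 47.3%, 29.2% and 23.5% of the reads. A containing tag was taken as the most abundant one that holds the short tag, and the median number of candidates was 5.5 for miRNA tags and 3 for the others.

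The miR-122-5p tag, which lacks the last 4 bases of the printed 23 nt form, was at 268, 232 and 250 TPM in NAFLD and at 283, 146 and 232 TPM in normal. The libraries overlapped fully, with a log2 fold change of 0.18 (SE 0.33, edgeR adjusted p = 0.83), and the direction turned to -0.42 with TMM factors. Per 1000 reads of its containing tag the members were at 1.82, 1.41 and 1.49 in NAFLD and at 1.53, 0.673 and 1.12 in normal.

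The miR-122-3p tag comes from the other arm of the same hairpin. It was at 24.1, 19.4 and 29.7 TPM in NAFLD and at 8.77, 9.01 and 7.07 TPM in normal. All NAFLD libraries were above all normal ones and NAFLD 1 did not stand apart. Its log2 fold change was 1.56 (SE 0.39) with the smallest p of the contained class, 0.00685 in edgeR, which became 0.499 after adjustment. Leaving out 1 library at a time gave log2 fold changes from 1.39 to 1.70. The 22 nt tag that contains it was at 80.7, 76.9 and 82.8 TPM in NAFLD and at 65.4, 74.6 and 97.7 TPM in normal, so that longer form overlapped between the groups.

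The let-7 members had higher mean levels in NAFLD, though none passed the test. The let-7f-5p tag of 18 nt was at 133, 86.8 and 112 TPM in NAFLD and at 87.8, 32.9 and 64.4 TPM in normal, where NAFLD 2 lay just below normal 1 (log2 fold change 0.84, SE 0.45, edgeR adjusted p = 0.63). Summed over its 4 members, let-7f-5p was at 247, 178 and 218 TPM in NAFLD and at 178, 78.2 and 143 TPM in normal, where NAFLD 2 and normal 1 were almost level. The tag that matched let-7a-5p alone was at 66.5, 60.04 and 61.2 TPM in NAFLD and at 53.0, 25.9 and 49.8 TPM in normal. Another tag, which matched both let-7a-5p and let-7c-5p, was at 62.0, 44.9 and 47.4 TPM in NAFLD and at 40.3, 14.9 and 34.1 TPM in normal. It is not part of the let-7c-5p sum below. The sums for let-7b-5p, let-7c-5p, let-7d-5p, let-7e-5p and let-7i-5p also lay above all normal libraries in each NAFLD library, with ratios of means from 1.44 for let-7c-5p to 1.98 for let-7i-5p. The exception was let-7g-5p, at 2.07, 0.850 and 1.69 TPM in NAFLD and at 1.52, 0.842 and 1.26 TPM in normal, which overlapped (ratio 1.27). Sums for miR-101b-3p, miR-192-5p and miR-143-3p overlapped, with ratios of 1.31, 1.109 and 1.28. Lying wholly above normal was not particular to let-7, and 18.9% of all tested tags did so. miR-122-3p (ratio 3.06), a Mir122 hairpin sum (2.98), a tag shared by miR-27a-3p and miR-27b-3p (2.62), miR-199a-3p (2.59) and miR-30a-3p (1.97) did so too. The other miRNA sums outside let-7 overlapped, among them miR-378a-3p with a ratio of 3.89. Over the 38 contained miRNA tags that were tested, the median log2 fold change was 0.55, and it was -0.06 with TMM factors, so their direction depends on the scaling. Of the 11 remaining tags that matched a miRNA, among them forms of miR-27b-3p and miR-872-5p, the share of the class's reads was at most 1.66% in any library.

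Most of the remaining class could also be traced to a longer tag, only a less abundant one. Its 2924 tags were sorted in a fixed order, so that each was counted once. First, 121 lay inside a tag of 24 nt or more with at least 1000 reads. Of the others, 399 were 1 substitution away from a contained tag. Of those still left, 2154 lay inside a tag of 20 nt or more with at least 30 but under 1000 reads. The last 250 were none of these. The 2154 tags summed to 8732, 4422 and 3286 TPM in NAFLD and to 4795, 953 and 2060 TPM in normal, with overlap (exact permutation p = 0.3). The 250 tags summed to 401, 302 and 299 TPM in NAFLD and to 192, 82.8 and 137 TPM in normal, without overlap (ratio 2.43, exact permutation p = 0.1).

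The leucine tRNA start, the most abundant remaining tag, was at 361, 155 and 134 TPM in NAFLD and at 206, 43.1 and 83.4 TPM in normal (log2 fold change 0.97, SE 0.70, edgeR adjusted p = 0.745, or 0.38 without NAFLD 1 and 1.78 without normal 1). Its 18 nt form, which lacks the last T, was at 117, 34.0 and 32.2 TPM in NAFLD and at 45.3, 3.29 and 3.45 TPM in normal. In both forms normal 1 lay within the NAFLD range. An internal piece of 18S rRNA, aagctcgtagttggatctt, was at 39.9, 29.5 and 24.6 TPM in NAFLD and at 35.8, 9.44 and 11.7 TPM in normal. Normal 1 lay within the NAFLD range here too, as it did for aaagatggtgaactatgc, at 23.7 to 56.5 TPM in NAFLD and 6.57 to 46.9 TPM in normal. The tag gggctggagagatggctc was at 124 TPM in NAFLD 1 and 69.9 TPM in normal 1, and at 0.927 to 9.40 TPM in the other 4 libraries. The glycine tRNA start was at 377, 25.5 and 38.0 TPM in NAFLD and at 90.5, 10.4 and 121 TPM in normal. Here NAFLD 1 alone carried the higher mean, and the log2 fold change of 0.99 (SE 1.29) became -1.22 without it. Within the substitution fit it was 1.73 (SE 0.29, edgeR adjusted p = 0.0476).

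Of the lists in the remaining class, the tags 1 substitution from a contained tag had the largest ratio over all libraries together. They differed by substitution side as well. The 399 remaining tags of this kind summed to 683, 1329 and 955 TPM in NAFLD and to 228, 323 and 114 TPM in normal, without overlap (ratio 4.47, exact permutation p = 0.1). Within the low-substitution libraries their log2 ratio was 2.00, again the largest of the lists. Within the high-substitution libraries it was 1.82, not the largest. There the tags inside a less abundant longer tag were at 2.02, the unassigned tags at 1.86 and those inside an abundant long tag at 1.81. Within each group the high-substitution libraries were the highest. The clearest example was a contained tag, the 28S rRNA start with A5C, at 0, 394 and 344 TPM in NAFLD and at 0, 118 and 0 TPM in normal. It is printed in lower case with the changed base in capitals.
28S rRNA start with A5C: cgcgCcctcagatcagacg
It made up 17.1%, 17.2% and 17.5% of the level of the original tag in NAFLD 2, NAFLD 3 and normal 2 and had 0 reads in the low-substitution libraries, which allows up to 0.259 TPM. A15C of the same tag made up 5.95%, 6.05% and 6.14% in those 3 libraries. These percentages were nearly equal in NAFLD and normal libraries of the high side. The log2 fold change of the A5C form was 2.64 (SE 3.31, edgeR adjusted p = 0.825), and 1.61 (SE 0.40, edgeR adjusted p = 0.0856) with the substitution covariate.

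The 5.8S rRNA end with G1T did not follow the substitution side. It was at 120, 9.86 and 7.62 TPM in NAFLD and at 11.3, 4.55 and 3.62 TPM in normal, highest in NAFLD 1, where the original 18 nt end was also highest. It made up 12.4%, 2.57% and 2.83% of the level of the original in NAFLD and 2.80%, 13.7% and 16.1% in normal. Its log2 fold change was 2.82 (SE 1.25, edgeR adjusted p = 0.546) and 0.43 without NAFLD 1. Among remaining tags with the smallest p, tcgggtgcgagaggtccc was at 5.09, 2.81 and 4.06 TPM in NAFLD and at 0.928, 0.505 and 0.589 TPM in normal (log2 fold change 2.54, SE 0.54, edgeR adjusted p = 0.499). A second, aggggtatgattctcgct, was at 5.52, 4.76 and 6.09 TPM in NAFLD and at 1.77, 0.842 and 1.09 TPM in normal (log2 fold change 2.13, SE 0.50, edgeR adjusted p = 0.499). In these 2 tags no NAFLD library stood apart, and all lay above the normal ones. In gcggggctgggcgcgcgc, a contained tag of 94.4% G+C, the levels were 7.41, 5.19 and 1.78 TPM in NAFLD and 1.01, 0.674 and 0.589 TPM in normal (log2 fold change 2.64, SE 0.69, edgeR adjusted p = 0.499). The remaining tag acggccctggcggagcgct was at 7.67, 1.79 and 2.12 TPM in NAFLD and at 0.337, 0.168 and 0.421 TPM in normal (log2 fold change 3.60, SE 0.84, edgeR adjusted p = 0.499, or 2.62 without NAFLD 1), and it was among the 7 called with the substitution covariate. Both were higher in every NAFLD library, at levels of few reads in normal.

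Several tags with a lower fitted level in NAFLD were high in 1 normal library. The contained tag aacctggcgctaaaccat was at 8.36, 15.9 and 3.39 TPM in NAFLD and at 95.2, 0.505 and 1.01 TPM in normal, so normal 1 alone gave its log2 fold change of -1.81, which was 3.59 without normal 1. The remaining tag tggtgactctagataacc had the same pattern, at 45.1 TPM in normal 1 and at 0.337 to 6.29 TPM elsewhere, as did ttggtgactctagataacc, tatctagaggaagtaaaag and the contained gaacctggcgctaaaccat, at 26.8, 12.9 and 8.52 TPM in normal 1. For gtttccggctcgaaggacc, which stops before the last A of a CCA end, the libraries overlapped at 0.253 to 4.22 TPM. The remaining tag atggataaggcattggctt was instead at 145 TPM in normal 3 and at 8.68 to 32.2 TPM elsewhere. No tag of either class lay below all normal libraries in all NAFLD libraries among those tested.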

How the data were processed

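Small RNA of 18 to 30 nt was excised from gels and sequenced, and the authors removed low-quality, adaptor-defective, poly A and under 18 nt reads. They deposited for each library the raw count of reads of every tag, not normalized and not filtered for a genome match. Aligned or annotated tags were not used here. Gel excision and length filtering both act near 18 nt, which can change the recovery of the tags described.

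TPM was the count divided by total clean reads and multiplied by 1000000. The members and lists were chosen with earlier results of these data known. Tags with 15 or more reads that passed filterByExpr were tested in R 4.3.3 with edgeR 4.0.16 (glmQLFit, library size equal to clean reads, Benjamini-Hochberg adjustment over 19492 tags, threshold 0.05), with DESeq2 1.42.0 and limma 3.58.1 as alternatives. DESeq2 was run with its own size factors and limma with clean reads. The edgeR step was tried out on simulated counts, whose values are not given. Each SE was obtained as the size of the log2 fold change over the root of its F statistic. Per-library values were compared by two-sided exact permutation tests in Python 3.11.15 with scipy 1.17.1, numpy 2.4.6 and pandas 2.3.3. Tags named are, per class, the 8 of highest mean TPM and, per direction, the 3 of smallest p, and the others named were chosen after their values were seen. A miRNA match required the whole tag.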

Additional observations from a re-analysis of the deposited data

How the results depend on the processing

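The summed TPM and G+C of both classes, the share of reads in the remaining class and the ratio of contained to containing reads kept their direction under every read minimum, containing-tag, length, CCA, substitution-side and left-out-library alternative run. The other values per library were recomputed within the substitution sides only, and there G+C turned from 8.38 to -0.20 points in the low-side libraries for contained tags 1 substitution from a more abundant member, and from 0.97 to -0.23 points in the high-side libraries for contained tags without a miRNA match that kept the 5′ end. The alternatives without NAFLD 1 and normal 1, without miRNA tags and without the most abundant tag were added after the data were seen. By total clean reads edgeR called 0 tags at an adjusted p under 0.05. DESeq2, which scaled by its own size factors and not by clean reads, called 19. Its median log2 fold change over all tested tags was 0.116, against 0.90 by clean reads. In edgeR a filter of 10 reads in every library left 1 call, and the substitution covariate gave 189, with 1 contained and 7 remaining tags. Leaving out each library in turn gave 0 calls each time. Same-numbered libraries did not deviate together in every pair (r of 0.74, 0.72 and -0.59 over tested tags). For every NAFLD library set against every normal one, r was positive on the same substitution side and negative across sides. It therefore cannot show whether the numbers pair the rats. With a replicate block 0 tags were called and 1597 passed at an unadjusted p, 107 contained and 160 remaining.

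Of 28 named tags, 11 turned direction somewhere, and the cause was not tested. The miR-122-5p tag was at log2 -0.42 with TMM factors and -0.51 with DESeq2, and the lysine tRNA start at -0.0067 and -0.081. The glycine tRNA start was at -0.0070 with DESeq2. With the substitution covariate aacctggcgctaaaccat was at 0.47, gtttccggctcgaaggacc at 0.16 and gaacctggcgctaaaccat at 0.20. With limma aacctggcgctaaaccat was at 0.42. With the replicate block it was at 1.34, atggataaggcattggctt at 0.21, ttggtgactctagataacc at 0.44 and tggtgactctagataacc at 0.77. Over the fits that left out 1 library, the log2 fold change of the miR-122-5p tag ran from -0.044 to 0.40, of the lysine tRNA start from -0.021 to 1.36, of the glycine tRNA start from -1.22 to 1.54, of aacctggcgctaaaccat from -2.46 to 3.59, of gaacctggcgctaaaccat from -2.03 to 2.39, of atggataaggcattggctt from -1.67 to 1.32, of gggctggagagatggctc from -1.62 to 5.40, of ttggtgactctagataacc from -3.01 to 2.68, of tggtgactctagataacc from -3.11 to 3.07 and of tatctagaggaagtaaaag from -2.60 to 2.31. The value that turned came without normal 2 for the miR-122-5p tag, without NAFLD 1 for both tRNA starts and gggctggagagatggctc, without normal 3 for atggataaggcattggctt and without normal 1 for the others.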

Other observations

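Reads of 18 to 19 nt outside the choice of tags had higher means in NAFLD, which passed no test. Tags under 30 reads that did not end in CCA summed to 9947, 7994 and 7428 TPM in NAFLD and to 4778, 1990 and 2828 TPM in normal, without overlap (two-sided exact permutation test, p = 0.1). The 331 tags of at least 30 reads that ended in CCA, the 3′ end of mature tRNA, summed to 6077, 2335 and 1848 TPM in NAFLD and to 2179, 453 and 604 TPM in normal, where normal 1 lay above NAFLD 3 (ratio 3.17, exact permutation p = 0.2).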
